A study of Mus musculus with 8 samples.

Results

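The proteasome degrades proteins that carry ubiquitin chains. Its core particle is a barrel of stacked rings, in which alpha subunits gate the entry and beta subunits hold the proteolytic sites, and regulatory particles on its ends bind, unfold and feed the substrate. In lymphoid cells, the constitutive catalytic beta subunits are in part replaced by those of the immunoproteasome, which favors peptides for presentation on MHC class I.

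The genes described here are the constitutive proteasome subunit genes of mouse splenocytes, together with the chaperones, activators and inhibitor that share their nomenclature. They were chosen by name, as the protein-coding genes whose symbol starts with Psma, Psmb, Psmc, Psmd, Psme, Psmf or Psmg and a digit, and the immunoproteasome genes Psmb8, Psmb9 and Psmb10 were left out. The rule took 47 of the 51826 genes in the count matrix. By role, these were 8 genes of the alpha ring, 8 of the beta ring, 6 ATPases and 11 non-ATPase subunits of the regulatory particle, 3 chaperones of that particle, 4 chaperones of core assembly, and 6 activators and inhibitors. The last of the 47, Psmc3ip, encodes a factor of meiotic recombination and shares only the start of its name with the others. As the rule takes it, it is counted among the proteasome genes below.

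Total splenocytes of 8 female Balb/c mice, aged 3 months, underwent RNA sequencing, with 4 mice that received tRA (all-trans retinoic acid, the active metabolite of vitamin A) and 4 control mice. The tRA was given by mouth every day from weaning at 1 mg/kg, dissolved in canola oil, and control mice received the oil alone. The treatment label carries the tRA dose for all 8 mice, the account of the controls is that of the paper, and the groups used here are those of the sample titles. No mouse received pristane, the agent used elsewhere in the study to induce lupus, and red blood cells were lysed before RNA extraction. The comparison asks which splenic genes respond to tRA before disease is induced.

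Counts on genes totaled 37539631, 31833853, 35924683 and 30919272 in control mice 1 to 4 and 33755595, 31810417, 35165876 and 32042754 in tRA mice 1 to 4. Proteasome genes took 0.319%, 0.297%, 0.345% and 0.301% of these counts in the control mice and 0.309%, 0.297%, 0.305% and 0.287% in the tRA mice. Levels below are CPM (counts scaled to a common library size by TMM normalization), and fold changes are tRA over control on the log2 scale. The samples carried the B cell marker Cd79a at a mean of 1400 CPM in control and 1270 CPM in tRA mice, and the T cell marker Trac at 284 and 309 CPM. These were the most abundant per length of 7 B cell and 7 T cell markers. Of the B cell markers, 4 had positive log2 fold changes (median 0.00445, of either sign with 1 mouse left out). Of the T cell markers, 6 had positive log2 fold changes (median 0.12).

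Mice within a group were not alike. Control mouse 3 had 7.06% of its counts on the mitochondrial genome, where the other control mice had 4.06%, 4.91% and 5.40% and the tRA mice had 5.59%, 6.335%, 5.50% and 5.52%. Its heat shock genes were also the highest, with a summed level over 11 genes of 14380 CPM against 10280, 8389 and 10200 CPM in the other control mice and 7389, 8701, 4938 and 7945 CPM in the tRA mice. All 11 heat shock genes, of which Hsp90ab1 was the most abundant per length, had a negative log2 fold change (median −0.639), and each was highest in control mouse 3. Without that mouse the median was −0.49. In edgeR, 3 of the 11 then had an unadjusted p under 0.05 (895 of the 16466 genes tested both there and with all mice). With that mouse there were 9 (6.49% of all genes tested). With all mice, edgeR called 0 (0% of all genes) and DESeq2 called 1 of the 11 (0.339% of all genes with an adjusted p there). The tRA mice 3 and 4 differed from the others in 12 immediate early genes, with summed levels of 5477 and 6797 CPM against 15040 and 11500 CPM in tRA mice 1 and 2 and 16110, 15000, 14320 and 12840 CPM in the control mice. All 12 genes had a negative log2 fold change (median −0.486). In edgeR 0 were called, with 4 at an unadjusted p under 0.05 (6.49% of all genes). Without tRA mouse 1 there were 9 (2089 of the 16457 genes tested both there and with all mice). DESeq2 called 2 of the 12 (0.339% of all genes with an adjusted p there). The median was −0.29 without tRA mouse 3 and −0.884 without tRA mouse 1, and in each fit without control mouse 2, control mouse 4, tRA mouse 3 or tRA mouse 4 there were 11 negative values.

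Of the 47 proteasome genes, 46 passed the filter on low counts, and 0 of them were called at an FDR under 0.1 by edgeR's quasi-likelihood test, against 0 of all 16484 genes tested (0%). The smallest adjusted p of a proteasome gene in edgeR was 0.757. At an unadjusted p under 0.05 in edgeR there were 3 proteasome genes (6.52%), which is close to the 6.49% of all genes tested, and DESeq2 called 0 proteasome genes and 44 (0.339%) of the 12964 genes for which it gave an adjusted p. All 3 genes encode beta ring subunits (Psmb3, Psmb4 and Psmb6) and had lower means with tRA, a direction in which 3.55% of all genes reached that p, while 0 had higher means at that p against 2.94% of all genes. These 3 depended on the mice and on the adjustment used. With each library adjusted for transcript length and GC content, 2 genes had such a p (Psma3 and Psmb1), and 0 of the 3 were among them. Without control mouse 3 there were also 2, Psmb6 and, with a higher mean in tRA mice, Psmc6. The count was 1 (Psmb6) without control mouse 1 or tRA mouse 2, 0 without tRA mouse 3 or tRA mouse 4, 5 without control mouse 4, 8 without control mouse 2 and 12 without tRA mouse 1. Over the genes tested with all mice the count moved as well, from 1070 of 16484 to 2089 of 16457 without tRA mouse 1. It was 865, 1124, 895 and 1047 without control mice 1 to 4, and 746, 857 and 641 without tRA mice 2 to 4. With the adjustment it was 907. In no proteasome gene were all 4 tRA mice below or all 4 above the control mice, whereas 1.63% and 1.9% of all genes were separated in these directions.

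Small differences of the same sign ran through most of the proteasome genes. The log2 fold change was negative in 37 and positive in 9 of the 46 genes tested, with a median of −0.107 and a range from −0.289 for Psmg4 to 0.126 for Psmc6. Without Psmc3ip, 36 of 45 were negative and the median was −0.105. Over all genes tested the median was 0.00136, and 49.7% of fold changes were negative. In total splenocytes, a smaller share of cells rich in these transcripts and less of the transcripts per cell cannot be told apart. Without control mouse 3, 31 of the 46 fold changes were negative and the median was −0.0501, and with each library adjusted for transcript length and GC content 36 were negative and the median was −0.0650.

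**Figure D1:**
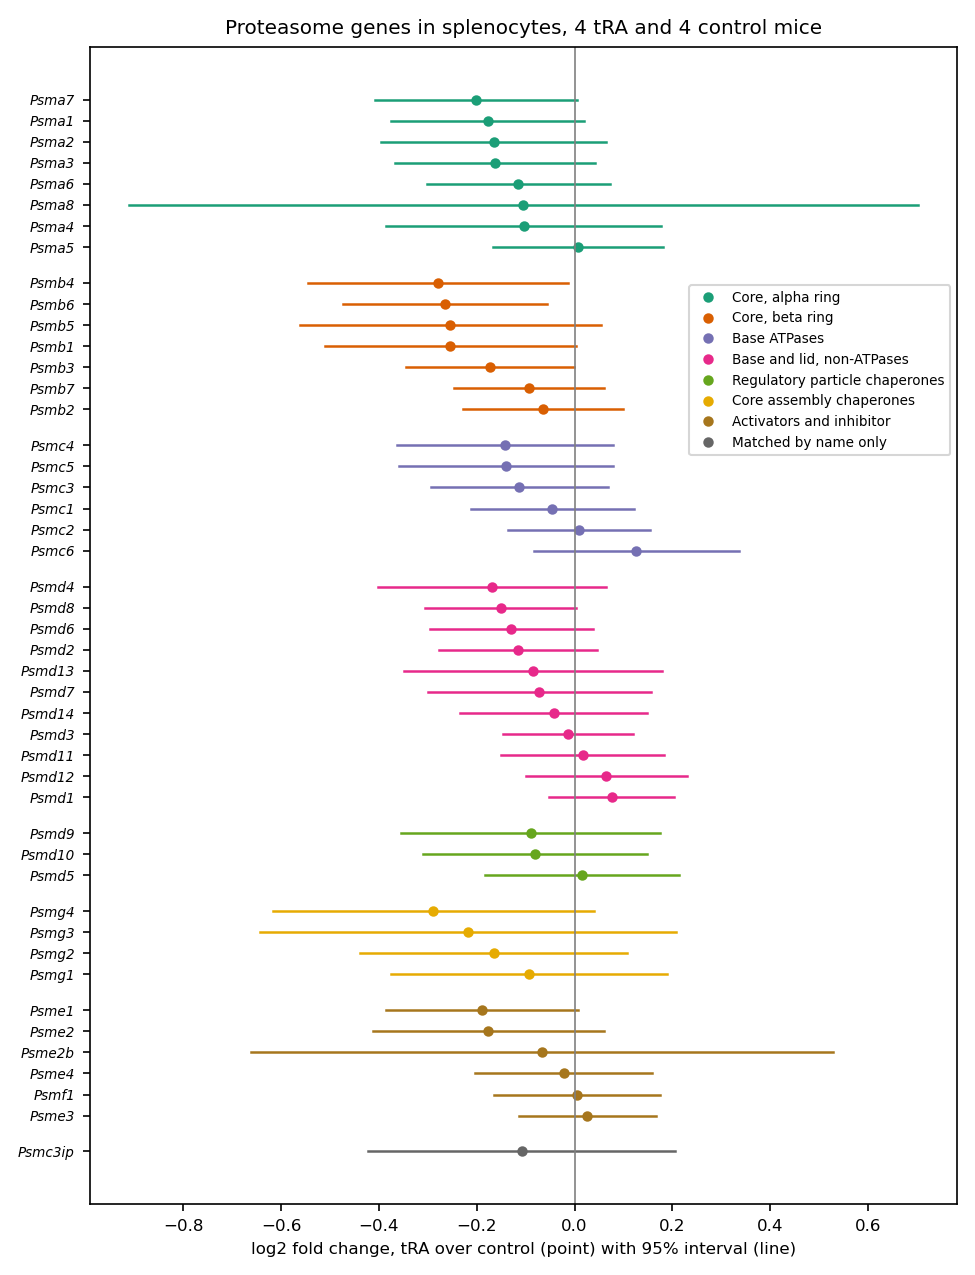
Log2 fold change of tRA over control (horizontal axis) for each of the 46 proteasome genes tested (vertical axis, grouped by role), with points for the edgeR estimate and lines for its 95% interval from 4 mice a group. The median is −0.107, and 3 intervals, those of Psmb3, Psmb4 and Psmb6, do not reach 0.

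The precision of these estimates is set by 4 mice a group. For the 44 genes with a control mean of at least 5 CPM, the 95% interval of the log2 fold change reached a median of 0.201 to either side. All of these intervals lay between −0.662 and 0.529, both of them bounds of Psme2b. Psma8 and Psmc3ip were below that level. Proteasome genes had a median within-group SD of log2 CPM of 0.135, against 0.162 for all protein-coding genes tested. The SDs were not compared at matched levels. The median level was 36.2 CPM per kb of transcript for the proteasome genes and 8.59 for the protein-coding genes. The steadiest was Psmd1, a scaffold of the regulatory particle base, at 0.0481, and the most variable was Psme2b at 0.501.

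The beta ring had the most negative median of the role groups. Its 7 genes tested all had negative log2 fold changes, with a median of −0.254 and a range from −0.278 for Psmb4 to −0.0642 for Psmb2. The median was −0.188 without control mouse 3 and −0.139 with the adjustment for length and GC content, under which the value of Psmb2 was above 0. The member left out, Psmb11, encodes the beta subunit of thymic cortical epithelium and had 2, 1, 1 and 2 counts in the control mice and 1, 0, 3 and 1 counts in the tRA mice.

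Psmb6 encodes the constitutive subunit with caspase-like activity and lies at chr11:70525367-70527858 on the plus strand (GRCm38). Its levels were 94.2, 87.6, 93.8 and 82.3 CPM in control mice 1 to 4 and 84.4, 81.6, 66.6 and 65.6 CPM in tRA mice 1 to 4. The tRA mice 3 and 4 were well below all control mice, tRA mouse 1 was above control mouse 4, and the groups overlapped. The means were 89.5 ± 5.66 and 74.5 ± 9.82 CPM (SD, n = 4), with a log2 fold change of −0.26 (SE 0.0945) and an adjusted p of 0.757 in edgeR. This was the lowest unadjusted edgeR p among the proteasome genes, at 0.0177, beside an adjusted p of 0.757.

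Psmb4, at chr3:94884093-94886961 on the minus strand, encodes a beta subunit without proteolytic activity. Its levels were 84.3, 74.5, 94.3 and 71.8 CPM in the control mice and 80.7, 70.2, 59.5 and 57.5 CPM in the tRA mice. Control mouse 3 was the highest and tRA mice 3 and 4 were the lowest, while tRA mouse 1 lay above control mice 2 and 4. The log2 fold change was −0.28 (SE 0.1203, edgeR adjusted p = 0.757).

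Psmb3 and Psmb1 encode other noncatalytic subunits of the ring. Psmb3, at chr11:97703399-97713500 on the plus strand, was at 66.4, 58.2, 68.5 and 58.1 CPM in the control mice and at 59.8, 56.1, 52.5 and 54.4 CPM in the tRA mice. Only tRA mouse 1 exceeded any control mouse, and the log2 fold change was −0.17 (SE 0.0775, edgeR adjusted p = 0.757). Psmb1, at chr17:15475021-15499751 on the minus strand, was at 121, 96.8, 126 and 97.7 CPM in the control mice and at 111, 91.6, 85.25 and 82.8 CPM in the tRA mice. As in Psmb4, control mice 1 and 3 were the highest, and tRA mouse 1 lay between them and control mice 2 and 4. Its log2 fold change was −0.25 (SE 0.117, edgeR adjusted p = 0.757).

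Psmb5 and Psmb7 encode the other constitutive catalytic subunits, with chymotrypsin-like and trypsin-like activity. Psmb5, at chr14:54614119-54618022 on the minus strand, had 16.1, 11.95, 15.7 and 12.3 CPM in the control mice and 14.2, 11.7, 10.5 and 10.6 CPM in the tRA mice. Control mice 1 and 3 were high and tRA mouse 1 lay above control mice 2 and 4. The log2 fold change of −0.25 had an SE of 0.139 and an edgeR adjusted p of 0.780. Psmb7, at chr2:38588036-38644087 on the minus strand, had 29.8, 27.5, 28.5 and 27.7 CPM in the control mice and 27.8, 27.6, 25.6 and 25.5 CPM in the tRA mice. The values of both groups lay close together and overlapped, with a log2 fold change of −0.09 (SE 0.0694, edgeR adjusted p = 0.814). The 95% interval of that difference ran from −0.246 to 0.0609. With the adjustment for length and GC content, the log2 fold changes in the ring were −0.15 for Psmb6, −0.20 for Psmb4, −0.071 for Psmb3, −0.23 for Psmb1, −0.14 for Psmb5 and −0.033 for Psmb7.

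The alpha ring had 7 negative and 1 positive log2 fold changes, with a median of −0.139. All 8 of its genes were highest in control mouse 3, and without that mouse the median was −0.0565. The largest difference was in Psma7, at chr2:180036374-180042433 on the minus strand. Its levels were 99.7, 93.1, 121 and 96.8 CPM in the control mice and 99.2, 90.3, 85.9 and 81.7 CPM in the tRA mice. Control mouse 3 was far above the rest, tRA mouse 1 lay among the other control mice, and the log2 fold change was −0.20 (SE 0.0936, edgeR adjusted p = 0.761), or −0.12 without control mouse 3 and −0.11 with the adjustment for length and GC content. Psma5 stood at the other end of the ring, with a log2 fold change of 0.0066 (SE 0.0789), which was negative without control mouse 1. Psma8, an alpha subunit of the testis, was barely detected, with 0.217, 0.280, 0.433 and 0.420 CPM in the control mice and 0.183, 0.346, 0.380 and 0.336 CPM in the tRA mice, and it was the lowest per length of the proteasome genes tested.

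In the regulatory particle, the differences were smaller. The 6 ATPases, which form the ring that unfolds the substrate, had 4 negative and 2 positive log2 fold changes with a median of −0.0795, and the 11 non-ATPase subunits had 8 negative and 3 positive with a median of −0.0722. The ATPase median was −0.122 (5 negative) without control mouse 2 and −0.0237 (3 negative) without control mouse 3. That of the non-ATPase subunits was −0.125 and −0.0117 in these fits. Without tRA mouse 4 the 2 medians were −0.0494 and −0.0451, and with the adjustment for length and GC content −0.0258 and −0.0315. For the 17 genes together, 12 were negative and the median was −0.0722, compared with 14 of 15 negative and a median of −0.165 for the core particle. Without control mouse 3 these medians were −0.0117 and −0.0982. With the adjustment for length and GC content they were −0.0315 and −0.113. The median of the regulatory particle was also −0.125 without control mouse 2, −0.112 without tRA mouse 1 and −0.0451 without tRA mouse 4. The particles also differ in median transcript length, at 1636 bases for the regulatory particle and 1165 bases for the core particle. The difference between the particles was not tested.

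Values in the regulatory particle had both signs. Psmd8, a subunit of the lid at chr7:29174188-29180701 on the minus strand, was at 131, 127, 141 and 126 CPM in the control mice and at 128, 123, 112 and 111 CPM in the tRA mice. Here tRA mouse 1 exceeded control mice 2 and 4 and the other tRA mice were below all control mice, with a log2 fold change of −0.15 (SE 0.0699, edgeR adjusted p = 0.761), or −0.085 with the adjustment for length and GC content. The ATPase gene Psmc6, at chr14:45329788-45349705 on the plus strand, was at 71.2, 60.7, 82.2 and 67.1 CPM in the control mice and at 82.7, 79.4, 74.6 and 70.2 CPM in the tRA mice. Control mouse 3 was close to the highest tRA mouse, the other control mice lay around or below the lowest tRA mouse, and the log2 fold change was 0.13 (SE 0.0947, edgeR adjusted p = 0.814). It was 0.20 without control mouse 3, 0.062 without control mouse 2 and 0.047 with that adjustment. Psmd14, the deubiquitinase of the lid, and Psmd4, a ubiquitin receptor, had log2 fold changes of −0.043 (SE 0.0866) and −0.17 (SE 0.106). The value of Psmd14 was positive without control mouse 3.

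The 4 chaperones of core assembly, Psmg1 to Psmg4, were expressed at low levels and all had negative log2 fold changes, with a median of −0.192. The median was −0.0508 without control mouse 3, −0.127 without tRA mouse 4 and −0.0967 with the adjustment for length and GC content. Psmg4, at chr13:34162964-34178173 on the plus strand, had the most negative value of all proteasome genes. Its levels were 8.065, 8.40, 10.5 and 7.40 CPM in the control mice and 8.25, 6.49, 5.97 and 7.49 CPM in the tRA mice. Control mouse 3 was the highest, the remaining control mice lay within the range of the tRA mice or just above it, and the log2 fold change of −0.29 had an SE of 0.149 (edgeR adjusted p = 0.780) and was −0.18 without control mouse 3 and −0.19 with the adjustment. The 3 chaperones of the regulatory particle, Psmd5, Psmd9 and Psmd10, had log2 fold changes between −0.0897 and 0.0147, of which 2 were negative, or 1 without control mouse 3. All 3 were negative without control mouse 2, control mouse 4 or tRA mouse 3, and with the adjustment.

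Among the activators and the inhibitor, 4 log2 fold changes were negative and 2 positive, with a median of −0.0445. The median was −0.0172 and −0.016 without control mice 1 and 2, −0.0074, −0.00818 and −0.113 without tRA mice 1, 2 and 4, and −0.013 with scaling by library size alone. Psme1, at chr14:55578123-55581529 on the plus strand, encodes with Psme2 the activator ring that interferon induces, and it had the highest level per length of all proteasome genes. Its levels were 207, 188, 247 and 203 CPM in the control mice and 203, 182, 182 and 174 CPM in the tRA mice. Control mouse 3 was the highest by far, tRA mouse 1 was near control mice 1 and 4, and the log2 fold change was −0.19 (SE 0.0890, edgeR adjusted p = 0.762), or −0.11 without control mouse 3 and −0.090 with the adjustment for length and GC content. Psme3, the subunit of the nuclear activator, Psme4, a large activator linked to chromatin, and the inhibitor gene Psmf1 had log2 fold changes of 0.026, −0.022 and 0.0050. The sign turned for Psme3 without tRA mouse 3, and in several alternatives for Psme4 and Psmf1, such as without tRA mouse 1.

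The same mice were often the highest or the lowest. Control mouse 3 had the highest level of the 8 mice in 33 of the 46 proteasome genes (71.7%), whereas it was the highest in 21.7% of all genes tested and in 43.9% of protein-coding genes with transcripts under 1500 bases. The tRA mouse 4 was the lowest in 19 of them (41.3%), against 12.3% of all genes tested. When each gene was centered on its mean, the mean over the beta ring was 0.207, −0.0195, 0.225 and −0.0183 in control mice 1 to 4 and 0.0873, −0.06, −0.201 and −0.221 in tRA mice 1 to 4. Control mice 1 and 3 were high and tRA mice 3 and 4 low, and the other 4 mice lay between them without regard to group. The alpha ring gave 0.0037, −0.0890, 0.321 and 0.0052 in the control mice and −0.0302, −0.0330, −0.0582 and −0.1198 in the tRA mice, so that control mouse 3 alone stood out. The immediate early genes gave −1.11 and −0.79 in tRA mice 3 and 4, which were also the lowest in the beta ring, and 0.519 in tRA mouse 1, which was the highest of the tRA mice in both. The beta ring order was not particular to it. The 2098 short protein-coding genes gave 0.0362, 0.0243, 0.177 and −0.0118 in the control mice and 0.0403, −0.0435, −0.109 and −0.114 in the tRA mice. Nuclear genes of oxidative phosphorylation gave 0.154, 0.0148, 0.212 and −0.0012 in the control mice and 0.0970, −0.0931, −0.217 and −0.166 in the tRA mice. The part of the mitochondrial, heat shock and immediate early levels of these mice in their proteasome values was not tested.

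**Figure D2:**
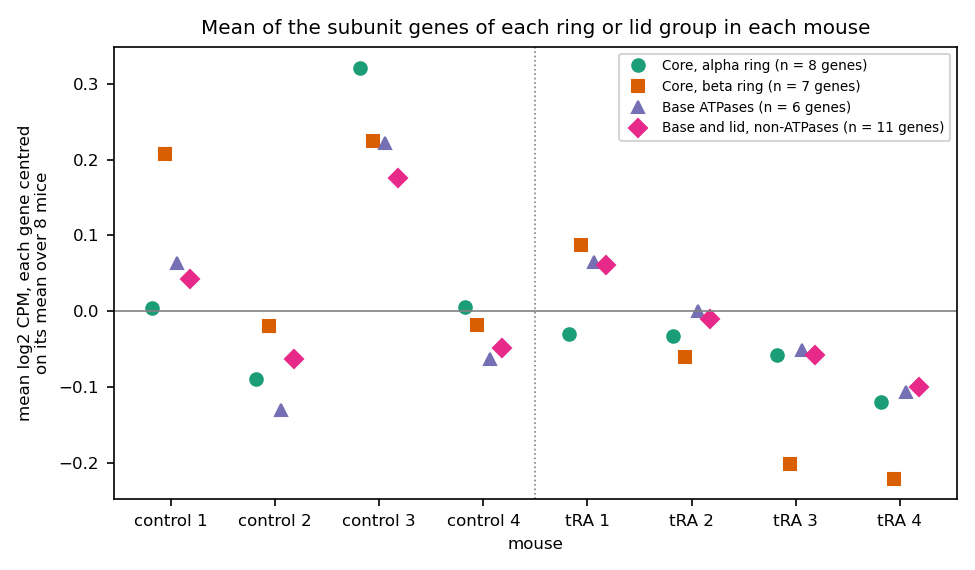
Mean log2 CPM of the alpha ring, the beta ring, the ATPases and the non-ATPase subunits in each mouse (horizontal axis), after each gene was centered on its mean over the 8 mice (vertical axis). All 4 groups of genes are highest in control mouse 3, and the beta ring is lowest in tRA mice 3 and 4, at −0.201 and −0.221.

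Fold changes also varied with transcript length. The 24 proteasome genes with transcripts under 1500 bases had a median log2 fold change of −0.154 with 23 negative, and the 22 longer ones had a median of −0.0443 with 14 negative. Without control mouse 3 these medians were −0.0872 and 0.0107, with 22 and 9 negative, and with the adjustment for length and GC content they were −0.0782 and −0.0328. Without control mouse 2 the longer ones had a median of −0.0822. Protein-coding genes as a whole were split the same way, with a median of −0.112 and 75.1% negative for the 2098 short ones and a median of 0.0143 and 45.4% negative for the 11048 longer ones. These medians were −0.0742 and 0.00788 without control mouse 3 and −0.0252 and 0.0046 with the adjustment, and the longer ones had 0.0072 without tRA mouse 3. With scaling by library size alone, the longer protein-coding genes had a median of 0.0432 and the longer proteasome genes one of −0.0139. That scaling gave a median of 0.0306 over all genes. Across the 46 proteasome genes, Pearson's r between log2 length and log2 fold change was 0.591 (Spearman's rho 0.596), and across 13146 protein-coding genes it was 0.252 (rho 0.312). Between GC content and log2 fold change, r was −0.415 (rho −0.429) across the proteasome genes and −0.206 (rho −0.239) across the protein-coding genes. These correlations are across genes of the same 8 libraries, which are not independent replicates. The adjustment changed length and GC content at once. The part of transcript length alone in the lower means of proteasome genes was not tested.

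Other families of short, abundant transcripts, looked at after the proteasome values were seen, gave larger values. All 83 cytosolic ribosomal protein genes had negative log2 fold changes (median −0.277), as did 70 of 75 nuclear genes of oxidative phosphorylation (median −0.189). In edgeR 0 of either family were called, with 39 and 25 at an unadjusted p under 0.05 (6.49% of all genes). DESeq2 called 1 and 0 (0.339% of all genes with an adjusted p there). Those counts of 39 and 25 became 18 and 12 without control mouse 1 or control mouse 3, 75 and 42 without tRA mouse 1, 25 and 16 without tRA mouse 2, 20 and 10 without tRA mouse 3, and 22 and 10 without tRA mouse 4. With the adjustment for length and GC content they were 16 and 7, with 81 and 62 negative values and medians of −0.196 and −0.111. Control mouse 3 was the highest in 59 and 51 of these genes. With all mice, 255 of the 2098 short protein-coding genes had an unadjusted edgeR p under 0.05. Over the genes tested with all mice there were 1070 of 16484 with all mice and 2089 of 16457 without tRA mouse 1. The other fits named gave 641 to 895 without a mouse and 907 with the adjustment.

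Compared per length, as CPM per kb of transcript averaged over the 8 mice, the proteasome genes spanned a wide range. Psme1 was at 178 and Psme2 at 128, followed by Psma7 at 105, Psmb6 at 103 and Psmd4 at 88.6. Within the core particle most genes lay between 55.4 (Psma1) and 105 (Psma7), while Psma5, Psma2, Psma3 and Psmb7 lay between 23.7 and 26.9, Psmb5 was at 14.3 and the testis gene Psma8 at 0.192. The values of Psma2 and Psma3 depend on long transcript models of 2911 and 2846 bases. The 6 ATPases, which the particle holds in equal numbers, were within 1.79-fold of each other, from 32.9 for Psmc6 to 58.9 for Psmc3, and Psmc3 and Psmc4 did not differ beyond their spread. The chaperones were lower, at 6.94 to 18.7 for core assembly and 8.05 to 10.1 for the regulatory particle.

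The immunoproteasome genes were compared with the constitutive subunits they replace. Psmb8 was at 214, 201, 255 and 206 CPM in the control mice and at 215, 195, 199 and 192 CPM in the tRA mice, of which tRA mouse 1 lay among the control mice and the others were below them, and control mouse 3 was the highest. Psmb9 was at 96.996, 86.0, 108 and 96.4 CPM in the control mice and at 90.6, 81.8, 85.8 and 82.8 CPM in the tRA mice, and only tRA mouse 1 exceeded a control mouse. Psmb10 was at 95.7, 83.3, 108 and 85.5 CPM in the control mice and at 90.4, 84.8, 79.9 and 84.4 CPM in the tRA mice, with control mouse 3 again the highest. Their log2 fold changes were −0.13 (SE 0.0841), −0.18 (SE 0.0757) and −0.13 (SE 0.0865), and the edgeR adjusted p was 0.793, 0.757 and 0.793. Without control mouse 3 the log2 fold changes were −0.055, −0.13 and −0.061, and with the adjustment for length and GC content they were −0.055, −0.099 and −0.036.

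Ratios within a library do not depend on its scaling. Per length, the ratio of Psmb9 to Psmb6 was 0.608, 0.580, 0.677 and 0.691 in the control mice and 0.634, 0.592, 0.761 and 0.745 in the tRA mice. Replicates 3 and 4 of both groups had the higher ratios, and the means were 0.639 ± 0.0536 and 0.683 ± 0.083 (SD, n = 4). Exact two-sided permutation tests were run on log2 ratios. For this ratio the mean log2 difference was 0.0921 (exact permutation p = 0.4, adjusted p = 0.6 over 3 ratios). The ratio of Psmb10 to Psmb7 was 2.90 ± 0.299 in control and 2.82 ± 0.101 in tRA mice (exact permutation p = 0.857, adjusted p = 0.857). The ratio of Psmb8 to Psmb5 was 8.70 ± 0.931 in control and 9.48 ± 0.904 in tRA mice (exact permutation p = 0.343, adjusted p = 0.6). With 4 mice a group, the smallest p that this exact test can give is 0.0286.

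**Figure D3:**
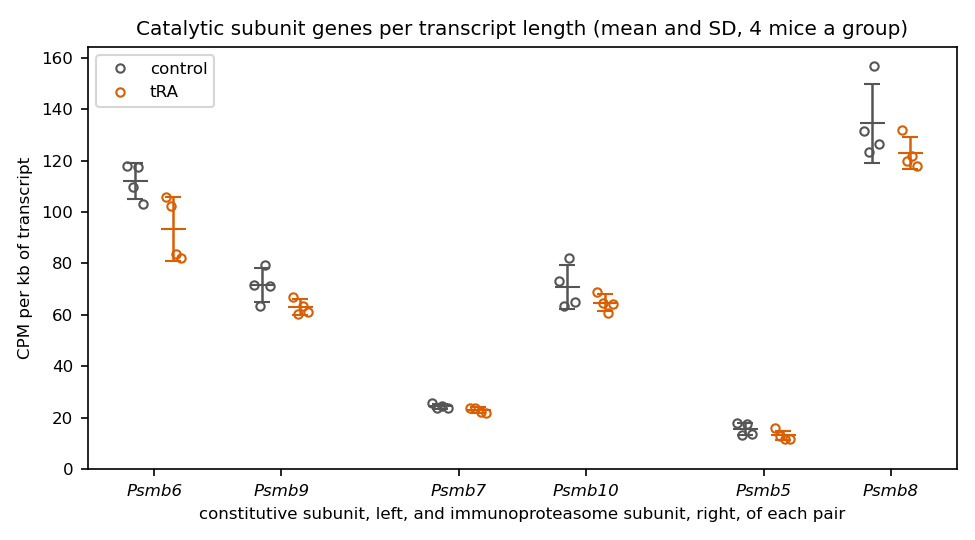
CPM per kb of transcript (vertical axis) of the constitutive catalytic subunit genes and the immunoproteasome genes that replace them (horizontal axis), with circles for each mouse and bars for the mean and SD of 4 mice a group. Psmb8 exceeded Psmb5 by a mean ratio of 8.70 in control and 9.48 in tRA mice, and the groups overlapped in all 6 genes.

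The low level of Psmb5 is uncertain, because a near-identical copy could take its reads. The processed pseudogene Gm3375 on chromosome 7 covers 88.4% of the Psmb5 transcript at 98.9% identity. It had 6.66 ± 0.991 CPM in control and 6.14 ± 0.782 CPM in tRA mice (SD, n = 4). Its values by mouse were 6.82, 5.88, 8.00 and 5.95 CPM in the control mice and 7.18, 6.24, 5.34 and 5.80 CPM in the tRA mice, so that, as in Psmb5, tRA mouse 1 was higher than control mice 2 and 4. When the counts of Gm3375 were added to Psmb5, an alternative chosen after seeing the data, the level per length became 21.5 and the ratio of Psmb8 to Psmb5 became 5.89 ± 0.509 in control and 6.22 ± 0.583 in tRA mice (exact permutation p = 0.429, adjusted p = 0.643). The stretch of 80 coding bases in a single Psmb5 exon that holds the most mismatches, at chr14:54616555-54616634 on the minus strand, is shown with its match at chr7:3181479-3181558 on the plus strand (GRCm38, GENCODE transcripts, mismatches in capitals).
Psmb5: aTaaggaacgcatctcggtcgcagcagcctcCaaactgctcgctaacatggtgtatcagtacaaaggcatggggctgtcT
Gm3375: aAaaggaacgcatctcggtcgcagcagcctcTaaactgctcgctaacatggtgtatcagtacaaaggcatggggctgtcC
The 3 mismatches are what separates reads of these stretches, and how the counting placed reads that fit both genes is not given in the sources used here.

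Of the proteasome genes, 8 had such a copy elsewhere (at least 97% identity over at least 100 bases), and in 6 copies covered at least 50% of the transcript. These were Psma5, Psmb3, Psmb5, Psmd11, Psme2 and Psme2b. Apart from Psmb5, the pair Psme2 and Psme2b was the most exposed, since Psme2b shares 94.9% of its transcript with Psme2. Psme2b was at 15.8, 14.9, 8.73 and 18.7 CPM in the control mice and at 8.52, 11.9, 14.6 and 20.4 CPM in the tRA mice. It was low in control mouse 3 and in tRA mouse 1, unlike Psme2, which was the highest in control mouse 3. Reads of Psmb7 and Nek6, whose models overlap over 35.1% of the Psmb7 transcript, may likewise have been counted for either gene.

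Genes that act on the proteasome were examined as lists. Of 22 genes tested for proteasome maturation, transcriptional control and substrate receptors, 0 were called in edgeR or DESeq2. In each, 2 had an unadjusted p under 0.05 (6.49% of all genes in edgeR and 1154 of 16484 in DESeq2). The log2 fold change was negative in 13 and positive in 9, with a median of −0.008. The median had either sign, at 0.0184 with scaling by library size alone (8 negative), 0.00766 without control mouse 1, 0.00907 without tRA mouse 3, 0.00129 without tRA mouse 4, −0.0364 without control mouse 4 and −0.0378 without tRA mouse 1. Ddi1 had 0 counts, and Paaf1 was not found under that symbol in the count matrix. Pomp encodes the chaperone that completes core assembly and lies at chr5:147860461-147876456. It was at 64.1, 49.6, 70.6 and 56.4 CPM in the control mice and at 56.2, 48.5, 47.3 and 46.0 CPM in the tRA mice. The tRA mice 2 to 4 were below all control mice and tRA mouse 1 was not, with a log2 fold change of −0.28 (SE 0.111, edgeR adjusted p = 0.757).

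The list holds a pair of related transcription factors. Nfe2l1, which induces proteasome genes when proteolysis is impaired, was at 158, 143, 138 and 138 CPM in the control mice and at 128, 136, 159.9 and 146 CPM in the tRA mice. The groups overlapped fully, with a log2 fold change of −0.017 (SE 0.0810, edgeR adjusted p = 0.980), and the sign depended on the mice and the scaling used. Nfe2l2, its relative in the response to oxidative stress, was at 73.7, 85.3, 86.6 and 81.8 CPM in the control mice and at 88.4, 90.7, 88.5 and 91.8 CPM in the tRA mice. All tRA mice were above all control mice, as in 1.9% of all genes tested, with a log2 fold change of 0.13 (SE 0.0657, edgeR adjusted p = 0.776), or 0.088 without control mouse 1. Sem1, the smallest subunit of the lid, is not named by the Psm rule and was at 79.1, 60.006, 89.9 and 62.2 CPM in the control mice and at 66.7, 53.0, 45.6 and 45.9 CPM in the tRA mice. Its groups overlapped through tRA mouse 1, and the log2 fold change was −0.46 (SE 0.153, edgeR adjusted p = 0.757).

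Of 16 genes for ubiquitin, its activating and conjugating enzymes and the unfoldase Vcp, 0 were called in edgeR or DESeq2. In each, 3 had an unadjusted p under 0.05 (6.49% of all genes in edgeR and 1154 of 16484 in DESeq2). There were 10 negative and 6 positive log2 fold changes, and the median was −0.0338. It lay between −0.0891 without tRA mouse 1 and −0.00102 without tRA mouse 4 when single mice were left out, and was −0.006 with scaling by library size alone. In edgeR 1 gene had such a p without control mouse 3, tRA mouse 3 or tRA mouse 4, and 1 with the adjustment for length and GC content. Rps27a, which encodes ubiquitin fused to a ribosomal protein, was at 568, 480.45, 733 and 531 CPM in the control mice and at 574, 444, 376 and 366 CPM in the tRA mice. The tRA mouse 1 lay among the control mice and the others were below them, with a log2 fold change of −0.39 (SE 0.161, edgeR adjusted p = 0.757).

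Promoters were searched for the core of the antioxidant response element, TGACNNNGC, to which Nfe2l1 and Nfe2l2 bind, and for CCAAT. RefSeq promoters (GRCm38.p6, 250 bases before to 50 after the start) were matched for 39 of the 47 genes, with 42 promoters. On either strand, TGACNNNGC was found in 6 of these (14.3%) and in 12.4% of all 32851 promoters, and CCAAT in 14 (33.3%) and in 37.4% of all. The 6 were the promoters of Psmb5, Psmb6, Psmc6, Psmd9, Psmd12 and Psme4, whose log2 fold changes had both signs, from −0.26 for Psmb6 to 0.13 for Psmc6. Windows of 30 bases around the match, in capitals, are shown 5′ to 3′ in the direction of the gene for the most negative and the most positive of them and for Psmb5. They lie at chr11:70525327-70525356 for Psmb6, chr14:54618023-54618052 for Psmb5 on the minus strand, and chr14:45329587-45329616 for Psmc6, where the match is on the opposite strand.
Psmb6: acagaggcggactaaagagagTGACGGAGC
Psmb5: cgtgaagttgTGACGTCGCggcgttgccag
Psmc6: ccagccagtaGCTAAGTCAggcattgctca
Counted from the RefSeq transcription starts, which differ from the GENCODE gene positions given above, the match started 9 bases before that of Psmb6, 47 bases before that of Psmb5 and 227 bases before that of Psmc6, and a match of letters does not show binding.

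Markers of other cells in the spleen are given for comparison, since total splenocytes hold many types. All 10 neutrophil precursor genes had negative log2 fold changes (median −0.84). In edgeR 0 were called, with 7 at an unadjusted p under 0.05 (6.49% of all genes), and DESeq2 called 4 (0.339% of all genes with an adjusted p there). In 5 of the 10, all tRA mice were below all control mice (1.63% of all genes). Without tRA mouse 4, or without a filter on low counts, edgeR called 3 of the 10, with 3 and 6 genes called over all genes in these fits. The summed levels of the 10 genes were 587.9, 747.5, 783.5 and 672.4 CPM in the control mice and 277.9, 343.3, 375.9 and 542.6 CPM in the tRA mice. Ngp was their most abundant gene per length and no marker was at 0 throughout. Their lowest level was in tRA mouse 1, in which the beta ring was the highest of the tRA mice. Plasma cell markers were negative in 5 of 8 (median −0.244), with 0 called in edgeR or DESeq2, 4 at an unadjusted p under 0.05 in edgeR, all lower with tRA (3.55% of all genes), and all tRA mice below all control mice in 3 (1.63% of all genes). Their summed levels were 1084, 1041, 1059 and 1251 CPM in the control mice and 954.8, 1085, 823.8 and 832.7 CPM in the tRA mice, and Jchain was the most abundant per length. The summed B cell markers were at 6260 ± 479 CPM in control and 6311 ± 69.3 CPM in tRA mice, and the summed T cell markers at 1199 ± 132 and 1307 ± 24.3 CPM (SD, n = 4). Erythroid markers summed to 851, 1616, 2480 and 524.3 CPM in the control mice and 2323, 664, 3715 and 628 CPM in the tRA mice. Their median log2 fold change was 0.349, or −0.259 without tRA mouse 3. Markers of NK cells, conventional dendritic cells, red pulp macrophages and proliferating cells had medians of −0.0461, −0.112, −0.0304 and −0.0684. Each was positive in a fit without 1 mouse, and 0 of these genes were called. The part of these cells in the proteasome values was not tested.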

How the data were processed

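The authors counted reads on Ensembl genes and deposited raw counts for 8 libraries of total splenocytes. For the steps before, the paper's methods name Bowtie2/Tophat2 and HTSeq, whereas the submitters' processing notes list STAR 2.5.2b, featureCounts 1.5.1 and DESeq2 1.26.0 on GRCm38. The strand setting of the counting is not given in the sources used here, and the library kit does not mark strand. A table of fold changes and adjusted p-values that the authors made with DESeq2 was not used here.

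Symbols, positions, and the length and GC content of the longest principal transcript were taken from GENCODE release M21, which holds 51633 of the 51826 identifiers. The main test was that of edgeR 4.0.16 under R 4.3.3 (filterByExpr with a minimum of 10 counts, TMM, quasi-likelihood test, Benjamini-Hochberg over 16484 genes, called at an FDR under 0.1). DESeq2 1.42.0 was an alternative, and edgeR ran on limma 3.58.1. Exact permutation tests used scipy 1.17.1 in Python 3.11.15, figures matplotlib 3.10.9, and copies BLASTN 2.17.0+. The fits were tested on simulated data. Intervals are for a 95% level.

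Genes given mouse by mouse were the constitutive catalytic subunits, the 6 genes with the lowest unadjusted p, those with the largest and smallest fold change and with the highest and lowest level per length, the immunoproteasome genes, Pomp, Nfe2l1, Nfe2l2 and the 3 other pathway genes with the lowest p. A gene that this rule takes is not reported here. Psme2b and Gm3375 were added after their values were seen. The other alternatives were no or a stricter filter, scaling by RLE or by library size, a loess offset for transcript length and GC content (span 0.3), a block for the replicate number with and without that offset, and each mouse left out in turn. The members and lists were chosen with earlier results of these data known.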

Additional observations from a re-analysis of the deposited data

Results flagged for a closer look

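In 110 groups of 4 mice examined, 6 proteasome values lay far from the other 3 mice of their group, where chance flags about 1 in 20 groups, or 5.5 here. In 3 genes the value was the high one of control mouse 3. Psma5 was at 37.85 CPM there and between 31.2 and 32.3 CPM in the other control mice. Psmd7, a subunit of the lid, was at 100.1 CPM there and between 71.8 and 76.2 CPM in the others. Psmd14, the deubiquitinase of the lid, was at 78.91 CPM there and between 62.4 and 64.6 CPM in the others. The remaining values came from other mice. Psmd11 was at 86.98 CPM in control mouse 1 and between 71.4 and 71.8 CPM in the other control mice. Psmd13 was at 72.51 CPM in tRA mouse 1 and between 55.9 and 58.3 CPM in the other tRA mice. Psme3 was at 159.9 CPM in tRA mouse 3 and between 140.3 and 143 CPM in the other tRA mice.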

How the results depend on the processing

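In every alternative, 0 proteasome genes were called and the medians of the proteasome genes, the core particle and the regulatory particle remained negative. The median over the proteasome genes ranged from −0.153 to −0.0501 with 1 mouse left out (−0.0501 without control mouse 3) and from −0.110 to −0.0572 in the other alternatives. For the core particle these ranges were −0.214 to −0.0982 and −0.170 to −0.111, and for the regulatory particle −0.1245 to −0.0117 and −0.0733 to −0.0235. Library size alone gave −0.0745 and moved the median of all genes to 0.0306.

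Genes called over all genes were 44 with DESeq2, 6 without a filter on low counts and 0 to 3 with 1 mouse left out (3 without tRA mouse 4). Proteasome genes at an unadjusted p under 0.05 were 5 without a filter, 7 with at least 10 counts in every mouse, and 0 to 12 with 1 mouse left out. Of the 3 in the main analysis, the count became 12 without tRA mouse 1, 8 without control mouse 2, 5 without control mouse 4, 1 without control mouse 1 or tRA mouse 2, 2 without control mouse 3, and 0 without tRA mouse 3 or 4. It was 2 with the length and GC offset, 4 with DESeq2 and 3 with RLE or library size. Of Psmb3, Psmb4 and Psmb6, all were among these genes with DESeq2 and RLE, 2 with library size or without a filter, 1 without control mouse 3 and 0 with the offset. Among the genes tested in the main analysis, 1070 had such a p there, 2089 without tRA mouse 1 and 641 to 1124 without each other mouse. Among these same genes there were 1188 without a filter, 1025 with at least 10 counts in every mouse and 907 with the offset. DESeq2 gave 1154, RLE 1077 and library size 1158. The cause was not tested.

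The sign of 17 of the 46 proteasome genes differed from the main analysis in at least 1 alternative, all with a main log2 fold change within 0.105 of 0. These were 8 genes without control mouse 3 (31 negative values in all), 7 without control mouse 4 (40), 6 without control mouse 2 (39), 5 without tRA mouse 1 (36), 1 or 2 without each other mouse, 5 with the length and GC offset (36), 4 with offset and block, 2 with library size alone (35) and 0 in the others. Of the genes given mouse by mouse under the naming rule and the 3 ratios, the sign changed in 3 values. The log2 fold change of Nfe2l1 was 0.0157 with library size alone and ranged from −0.0783 to 0.0319 with 1 mouse left out. That of Psma8 ranged from −0.274 to 0.0769, and the log2 ratio difference of Psmb10 to Psmb7 from −0.0688 to 0.0363, where it was highest without control mouse 3.

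Mice of both groups share replicate numbers, but no label says that these pair the mice, and they were not taken as pairs. Deviations of same-numbered mice correlated at 0.157, −0.0229, −0.014 and 0.259. Those of differently numbered mice correlated at −0.283 to 0.271. With the replicate number as a block, 0 genes were called over all genes, 3 proteasome genes had an unadjusted p under 0.05 and their median was −0.108. With the block and the length and GC offset these were 4 genes and −0.0572. Over all genes, 1200 had such a p with the block and 1147 with block and offset. The block changed no call. At totals of 30919272 to 37539631 counts a mouse, Psma8 and Psmb11 had few counts.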
